A study of Mus musculus and Acomys cahirinus with 25 samples.

Results

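Small leucine-rich proteoglycans, the large proteoglycan versican and the genes of the elastic fiber were examined in the dermis of healing wounds. The genes were taken by symbol from a list of 10, Dcn, Lum, Bgn, Fmod, Vcan, Prelp, Eln, Fbn1, Fbn2 and Fbln5. Rows were picked by name, from a list that was chosen with earlier results of these data known. All 10 were present among the 24500 gene symbols counted in each of 25 RNA-seq libraries. Reads per gene were expressed as CPM, the reads of a gene scaled to a common total of reads on all genes in each library.

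The laboratory mouse libraries came from full-thickness dorsal wounds of 4-week-old mice at post-wound day (PWD) 14, with epidermis and dermis separated by hand. Wild-type tissue was taken from the wound center (epidermis n = 2, dermis n = 5) and the wound margin (epidermis n = 2, dermis n = 2). The knockout group was wound center dermis of K14-Cre-Twist1 mice (KO, n = 2), in which a keratin 14 driven Cre removes the transcription factor gene Twist1 from keratinocytes. Per the study's methods, center and margin came from C57BL/6J mice, whereas the knockout came from a cross of a conditional Twist1 line with the Cre line and was compared with Twist1+/+ mice, whose strain background is not given in the sources used here. The dermis of the knockout is therefore not the deleted tissue, and its Twist1 level, 44.0 and 73.4 CPM, does not check the deletion. The spiny mouse (Acomys cahirinus, 2 months old) libraries came from dermis at PWD0, meaning unwounded skin (n = 2), PWD14 (n = 1), PWD21 (n = 2) and PWD28 (n = 1), with epidermis of the same days (n = 1, 2, 2 and 1). Those were whole wounds, not divided into center and margin, and the tissue layers were parted with trypsin. Days are given as labelled; the study's own sample list gives nearby but not identical days for spiny mouse wounds.

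Small leucine-rich proteoglycans are secreted proteins that bind collagen fibrils through a curved repeat domain and limit how thick the fibrils grow. Decorin (Dcn) and biglycan (Bgn) carry chondroitin or dermatan sulfate chains, whereas lumican (Lum), fibromodulin (Fmod) and prolargin (Prelp) belong to the branch that carries keratan sulfate or no chains. Versican (Vcan) is a far larger proteoglycan that binds hyaluronan and swells the matrix of growing or injured tissue. Elastic fibers consist of a core of elastin (Eln) laid on microfibrils of fibrillin-1 (Fbn1) and fibrillin-2 (Fbn2), the latter best known from embryonic tissue, and fibulin-5 (Fbln5) tethers elastin to the microfibril and to cells. Dermal fibroblasts make most of these proteins.

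On GRCm38, the genome to which reads were aligned as mm10, Dcn (97479500 to 97518163) and Lum (97565501 to 97572703) are neighbours on chromosome 10. Prelp (133910304 to 133930102) and Fmod (134037254 to 134048280) lie close together on chromosome 1. Bgn is on chromosome X (73483601 to 73495936), Vcan on chromosome 13 (89655309 to 89743027), Eln on chromosome 5 (134702595 to 134747368), Fbn1 on chromosome 2 (125300594 to 125506485), and Fbln5 on chromosome 12 (101746565 to 101819119). The exons of Prelp, Eln, Fbn1 and Fbn2 each overlap an exon of a predicted gene on the opposite strand. The spiny mouse libraries were not strand-specific, so reads of those overlaps cannot be assigned to a strand there.

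RefSeq promoter windows were at hand for 6 of the 10 genes. Because the study concerns Twist1, a factor of the class that binds the E-box CANNTG, the 250 bases before the transcription start were searched for that motif, which reads the same on both strands. It was found in 4 of the 7 windows (Fbln5 has 2 starts), and 66.2% of all 32851 windows of the same length hold it. These 4 windows are shown 5′ to 3′ on the gene's strand, in GRCm38.p6, with each E-box in capitals. A match is a description of the letters and not a binding site.
Bgn (chrX:73483351-73483600, plus strand): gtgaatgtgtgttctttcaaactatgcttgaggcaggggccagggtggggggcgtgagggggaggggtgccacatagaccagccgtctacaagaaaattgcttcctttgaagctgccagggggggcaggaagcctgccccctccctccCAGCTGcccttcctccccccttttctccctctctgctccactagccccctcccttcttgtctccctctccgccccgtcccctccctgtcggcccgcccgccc
Fmod (chr1:134037004-134037253, plus strand): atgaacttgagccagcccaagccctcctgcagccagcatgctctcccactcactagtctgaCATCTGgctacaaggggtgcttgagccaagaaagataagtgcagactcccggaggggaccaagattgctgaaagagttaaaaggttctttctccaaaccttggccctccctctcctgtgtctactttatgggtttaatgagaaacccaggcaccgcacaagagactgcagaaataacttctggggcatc
Vcan (chr13:89742513-89742762, minus strand): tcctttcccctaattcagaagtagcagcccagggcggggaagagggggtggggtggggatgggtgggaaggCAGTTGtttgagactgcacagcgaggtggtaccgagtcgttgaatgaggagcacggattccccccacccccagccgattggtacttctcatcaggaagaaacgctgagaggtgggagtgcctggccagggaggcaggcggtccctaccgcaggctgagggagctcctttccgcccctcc
Fbln5 (chr12:101819120-101819369, minus strand): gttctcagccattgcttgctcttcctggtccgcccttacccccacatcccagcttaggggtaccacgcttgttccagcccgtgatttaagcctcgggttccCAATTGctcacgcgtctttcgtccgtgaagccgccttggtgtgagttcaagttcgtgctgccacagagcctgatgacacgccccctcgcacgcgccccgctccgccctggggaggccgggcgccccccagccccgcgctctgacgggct
The windows of Prelp, Fbn1 and the other start of Fbln5 held no E-box. The share of G and C was 65.2% for Fbln5, 64.4% for Bgn, 62.4% for Vcan and 51.2% for Fmod, beside a median of 52.4% over all windows. The GC-box GGGCGG, searched on both strands, occurred in the windows of Bgn (3 times), Vcan (2), the printed start of Fbln5 (2) and Fbn1 (1), and in 32.7% of all windows. These are laboratory mouse sequences, and the spiny mouse promoters were not analysed here.

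Reads on genes numbered 19413261 to 86532134 per laboratory mouse library and 5669760 to 34751956 per spiny mouse library. Reads of both species were aligned to the mouse genome. Low alignment quality excluded 38.0% to 60.5% of the reads in spiny mouse libraries and 23.3% to 34.4% in laboratory mouse libraries. The cause of this difference was not tested, and levels were not compared between the species. Fibroblast markers (15 genes, led by collagens) summed to 73740 to 176600 CPM in the 15 dermis libraries and to 373 to 6988 CPM in the 10 epidermis libraries, and keratinocyte markers (14 genes) to 41.1 to 35980 CPM in dermis and 41960 to 216400 CPM in epidermis. The 5 wild-type center dermis libraries formed 2 sets, replicates 1 and 2, which the study compared with the margin, and replicates 3 to 5, which it compared with the knockout. Bgn was 2789 and 2924 CPM in the first set and 5032, 6022 and 6281 CPM in the second, while Fbln5 was 353 and 396 CPM against 144, 199 and 207 CPM. The study describes the replicate libraries as independent experiments, but no label ties a library to an animal or says how many animals it holds, so p-values measure the spread between these libraries. Center and margin were cut from the same wounds and then parted into layers, and which libraries share a wound is not labelled. Each laboratory mouse comparison was made within its own set. Knockout replicate 2 also stood apart, with keratinocyte markers summing to 35980 CPM against 1057 CPM in knockout replicate 1 and 41.1 to 92.0 CPM in the 3 wild-type libraries.

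Per kilobase of exon, Bgn, Dcn and Lum led in laboratory mouse dermis. Over the 5 wild-type center libraries their mean levels were 1906, 1561 and 1039 CPM per kilobase, and the libraries of Bgn overlapped those of both others on this scale while Dcn and Lum did not overlap each other. Fbn1 followed at 97.1 CPM per kilobase, then Vcan (51.3), Fbln5 (42.8), Fbn2 (29.5), Fmod (28.6), Eln (26.9) and Prelp (6.68). The libraries of each pair of neighbours from Fbn1 down to Eln overlapped, so that part of the order is not firm, and all libraries of Prelp lay below those of Eln on this scale. The lead of Bgn came from replicates 3 to 5, where its mean was 2389 CPM per kilobase. In replicates 1 and 2, the set compared with the margin, Dcn led at 1339, before Bgn (1181) and Lum (1174). Prelp was at 8.78 in that set. In the margin Dcn (1957) and Lum (1848) stood above Bgn (867 CPM per kilobase), and Prelp reached 19.4.

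In spiny mouse dermis, wounded skin was compared with unwounded skin and with later days of healing. At PWD21, 7 of the 10 genes were higher than at PWD0 and none was lower, by edgeR's quasi-likelihood test at an adjusted p (Benjamini-Hochberg over all genes tested) under 0.05. Of all 14481 genes tested, 12.0% were called higher and 14.2% lower. Over the 10 genes the median log2 fold change was 2.31, beside 0.03 over all genes. The 3 genes that were not called were Dcn, Prelp and Eln. The share of reads set aside for low alignment quality was 60.5% and 55.2% in the PWD0 libraries and 44.8% and 38.0% at PWD21. Its part in these differences was not tested. Bgn, Fmod, Vcan and Fbln5, whose promoter windows with an E-box are printed here, were among the 7, and so was Fbn1, whose window held none. Lum and Fbn2, also among the 7, had no window to search, and Prelp, whose window held no E-box, was not called. A relation between the motif and the calls was not tested. The plot of the levels by day shows Eln, Prelp and Dcn lowest at PWD14. Both PWD21 libraries of Lum, Bgn, Vcan, Fbn2 and Fbln5 lie above those of every other day.

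**Figure D1:**
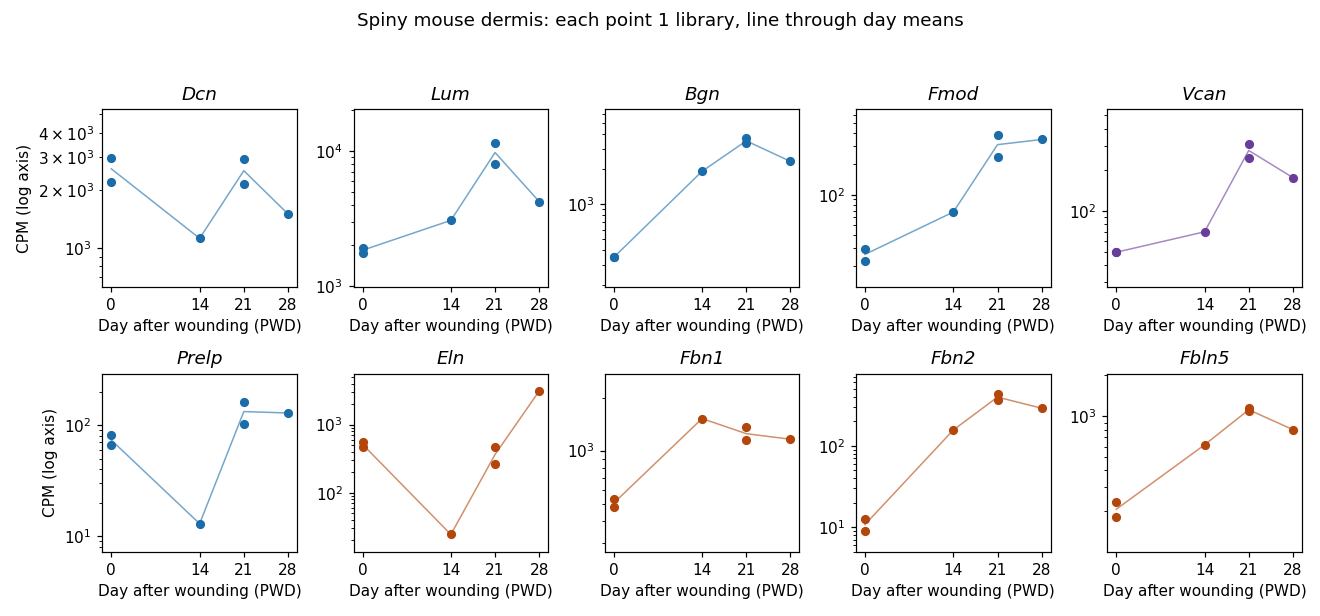
CPM (log axis, scaled for each gene) of the 10 genes in spiny mouse dermis against the labelled day after wounding, where each point is 1 library and the line joins the day means. Eln went from 478 and 551 CPM at PWD0 to 24.5 CPM at PWD14 and 3114 CPM at PWD28. Lum, Bgn, Fmod, Vcan, Fbn1, Fbn2 and Fbln5 lay above both PWD0 libraries at every wounded day.

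Among the proteoglycans of the collagen fibril, biglycan was higher at PWD14 and PWD21. Bgn was 346 and 348 CPM at PWD0, 1914 CPM at PWD14, 3325 and 3668 CPM at PWD21 and 2328 CPM at PWD28. Its log2 fold change was 2.69 ± 0.45 (SE, adjusted p = 0.00611) at PWD14 and 3.22 ± 0.44 (adjusted p = 0.00176) at PWD21. The wounded libraries all lay above the unwounded pair. Decorin, its close relative, was not called at either day. Dcn was 2219 and 2969 CPM at PWD0, 1122 CPM at PWD14, 2163 and 2910 CPM at PWD21 and 1505 CPM at PWD28. The PWD0 and PWD21 libraries overlapped (log2 fold change -0.17 ± 0.47, 95% interval -1.24 to 0.91, adjusted p = 0.819), and the lower value at PWD14 missed the threshold (-1.0 ± 0.55, adjusted p = 0.231).

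Lumican, which binds collagen as decorin does and is also abundant in cornea, reached its highest level at PWD21. Lum was 1761 and 1911 CPM at PWD0, 3059 CPM at PWD14, 8077 and 11420 CPM at PWD21 and 4215 CPM at PWD28. The PWD21 pair exceeded every other day (log2 fold change against PWD0 2.29 ± 0.59, adjusted p = 0.0248), while PWD14 against PWD0 was not called (0.95 ± 0.60, adjusted p = 0.294). The gain at PWD21 lost its call when either PWD21 library was left out (adjusted p = 0.153 and 0.156).

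Fibromodulin, a regulator of fibril assembly shared by tendon and skin, went from 22.4 and 29.7 CPM at PWD0 to 67.7 CPM at PWD14, 233 and 386 CPM at PWD21 and 348 CPM at PWD28. It was higher than PWD0 at PWD14 (1.62 ± 0.39, adjusted p = 0.0238) and at PWD21 (3.48 ± 0.36, adjusted p = 5.71e-04). Prolargin, which links basement membrane to collagen, went the other way first. Prelp was 66.1 and 81.1 CPM at PWD0, 12.9 CPM at PWD14, 103 and 163 CPM at PWD21 and 129 CPM at PWD28. The fall at PWD14 (-2.28 ± 0.43, adjusted p = 0.00968) and the rise from PWD14 to PWD21 (3.08 ± 0.45, adjusted p = 0.0354) both passed, and PWD21 against PWD0 did not (0.76 ± 0.31, adjusted p = 0.101).

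Versican was called higher at PWD21 and not at PWD14. Vcan was 49.7 CPM in both PWD0 libraries, 70.2 CPM at PWD14, 243 and 311 CPM at PWD21 and 175 CPM at PWD28. The PWD21 pair was above PWD0 (2.36 ± 0.29, adjusted p = 0.00118) and above PWD14 (1.68 ± 0.36, adjusted p = 0.0471), and the step from PWD0 to PWD14 was not called (0.72 ± 0.33, adjusted p = 0.156).

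Of the elastic fiber genes, the fibrillins and fibulin-5 were higher by PWD14, when elastin was lower. Fbn2 was 9.0 and 12.6 CPM at PWD0, 156 CPM at PWD14, 365 and 427 CPM at PWD21 and 289 CPM at PWD28. Its gains were the largest of the 10 genes at both days, with log2 fold changes of 4.09 ± 0.34 (adjusted p = 4.34e-04) at PWD14 and 5.10 ± 0.33 (adjusted p = 1.91e-04) at PWD21. The wounded libraries all lay far above the unwounded pair. Fbn1, the main fibrillin of adult tissue, moved less, from 478 and 528 CPM to 1520 CPM at PWD14, 1141 and 1353 CPM at PWD21 and 1160 CPM at PWD28. It was above PWD0 at PWD14 (1.82 ± 0.40, adjusted p = 0.0170) and at PWD21 (1.21 ± 0.34, adjusted p = 0.0330), but neither call held without either PWD21 library (adjusted p = 0.0686 and 0.0709 at PWD14, 0.123 and 0.237 at PWD21), and the call at PWD21 was also lost with all spiny mouse libraries in 1 fit. Fbln5 was 181 and 233 CPM at PWD0, 618 CPM at PWD14, 1090 and 1147 CPM at PWD21 and 799 CPM at PWD28. Its gains were 1.81 ± 0.36 (adjusted p = 0.0117) and 2.34 ± 0.33 (adjusted p = 0.00204).

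Elastin itself had its lowest level at PWD14. Eln was 478 and 551 CPM at PWD0, 24.5 CPM at PWD14, 265 and 465 CPM at PWD21 and 3114 CPM at PWD28. The single PWD14 library was 21.0-fold below the PWD0 mean and the single PWD28 library 6.05-fold above it, a ratio that was not tested. Each step passed, with -4.16 ± 0.58 from PWD0 to PWD14 (adjusted p = 0.00267), 3.61 ± 0.56 from PWD14 to PWD21 (adjusted p = 0.0354) and 2.90 ± 0.44 from PWD21 to PWD28 (adjusted p = 0.0221). PWD21 against PWD0 did not (-0.59 ± 0.36, 95% interval -1.40 to 0.22, adjusted p = 0.246).

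At PWD14, 5 genes were called higher than PWD0 (Bgn, Fmod, Fbn1, Fbn2 and Fbln5) where 7.95% of all 15344 genes were, and 2 were called lower (Eln and Prelp) where 10.5% were. From PWD14 to PWD21, 3 genes were called higher (Eln, Prelp and Vcan), beside 2.85% of all genes. From PWD21 to PWD28 only Eln was called, beside 1.40% of all genes called higher, and the other 9 log2 fold changes lay between -1.39 (Lum) and -0.02 (Fmod). PWD14 and PWD28 had 1 library each, assumed to vary like the days with 2, and PWD0, PWD14 and PWD21 libraries recur across these comparisons. The calls of the later steps rest on the PWD21 pair, since without either PWD21 library 0 of the 10 genes were called from PWD14 to PWD21 and 0 from PWD21 to PWD28.

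**Figure D2:**
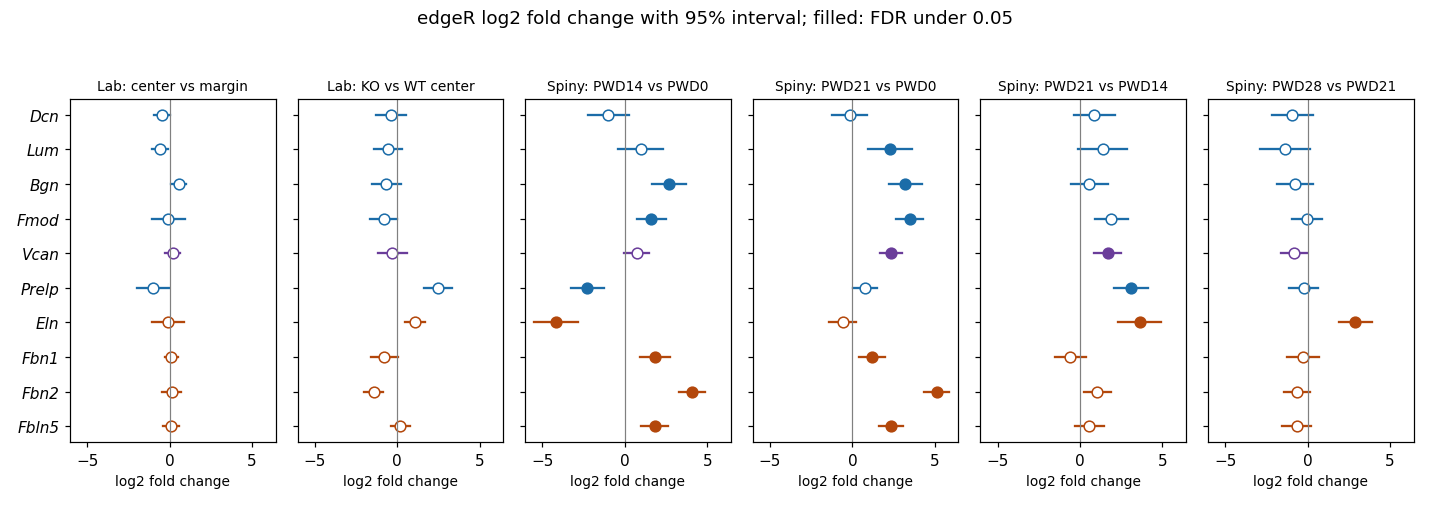
Log2 fold change (horizontal axis, with 95% interval) of each of the 10 genes in 6 dermis comparisons by edgeR, where filled points have an adjusted p under 0.05. Filled points are absent from both laboratory mouse panels, and 7 stand in each of the panels of PWD14 and PWD21 against PWD0.

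Cell type markers moved with the days. From PWD0 to PWD21, 9 of the 15 fibroblast markers were higher (median log2 fold change 2.14), all 10 adipocyte markers, 12 of the 14 keratinocyte markers and 7 of the 10 skeletal muscle markers were lower (medians -4.36, -2.68 and -2.48). The fibroblast sum was 73740 to 108200 CPM at PWD0, 151800 CPM at PWD14, 134700 to 176600 CPM at PWD21 and 109100 CPM at PWD28, and no fibroblast marker was at 0 in any dermis library. Keratinocyte markers summed to 8788 to 12420 CPM at PWD0, 1805 CPM at PWD14, 817 to 1469 CPM at PWD21 and 4939 CPM at PWD28. Smooth muscle and pericyte markers summed to 3892 to 11750 CPM at PWD0, 11670 CPM at PWD14, 3787 to 4377 CPM at PWD21 and 2339 CPM at PWD28. The median of the 10 markers was 213 and 953 CPM at PWD0 and 112 CPM at PWD14, where 1 was called higher and 2 lower than at PWD0 and the median log2 fold change was -0.85. In bulk tissue, fewer cells of a type and less RNA per cell cannot be told apart. The part of these shifts in the changes of the 10 genes was not tested.

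Wound center and margin of the laboratory mouse dermis were compared because new hair follicles form at the center. None of the 10 genes passed edgeR's threshold, beside 0.85% of all 14698 genes. At an unadjusted p under 0.05 there were 3 (Lum, Bgn and Prelp), beside 15.8% of all genes, and DESeq2 called Lum and Bgn (2 genes), beside 5.02%. The median log2 fold change of the 10 was -0.01, and that of all genes was -0.03.

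Lum was 2795 and 2952 CPM in the center and 4363 and 4684 CPM in the margin, and Bgn was 2789 and 2924 CPM against 2089 and 2104 CPM. Neither gene's libraries overlapped between the regions, in opposite directions, with log2 fold changes of -0.56 ± 0.22 (95% interval -1.05 to -0.08, adjusted p = 0.251) and 0.53 ± 0.20 (95% interval 0.08 to 0.99, adjusted p = 0.246). Prelp was 23.1 and 40.4 CPM in the center against 39.3 and 101 CPM in the margin (-1.02 ± 0.43, adjusted p = 0.280). Dcn was 2420 and 2772 CPM against 3233 and 4356 CPM, also without overlap (-0.46 ± 0.23, adjusted p = 0.373). The share of all genes whose 2 center and 2 margin libraries lie apart was not counted. The elastic fiber genes differed by between -0.10 (Eln) and 0.13 (Fbn2) on the log2 scale, with 95% intervals that were wide for Eln (-1.09 to 0.88) and Fbn2 (-0.46 to 0.71), and narrower for Fbn1 (-0.29 to 0.51) and Fbln5 (-0.40 to 0.57). Vcan differed by 0.17 ± 0.21 and Fmod by -0.10 ± 0.45. The signs for Fmod, Vcan, Eln, Fbn2 and Fbln5 turned with which library was left out, and are not given as directions. Eln was the most uneven of them, with 43.7 and 174 CPM in the center and 108 and 135 CPM in the margin. Schwann cell and nerve markers were lower in the center for 2 of 10 genes, at a median log2 fold change of -1.17. Keratinocyte markers moved with the region, at 471 to 672 CPM in the center and 2424 to 4876 CPM in the margin, 8 of 14 called lower in the center, and their part in these values was not tested.

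**Figure D3:**
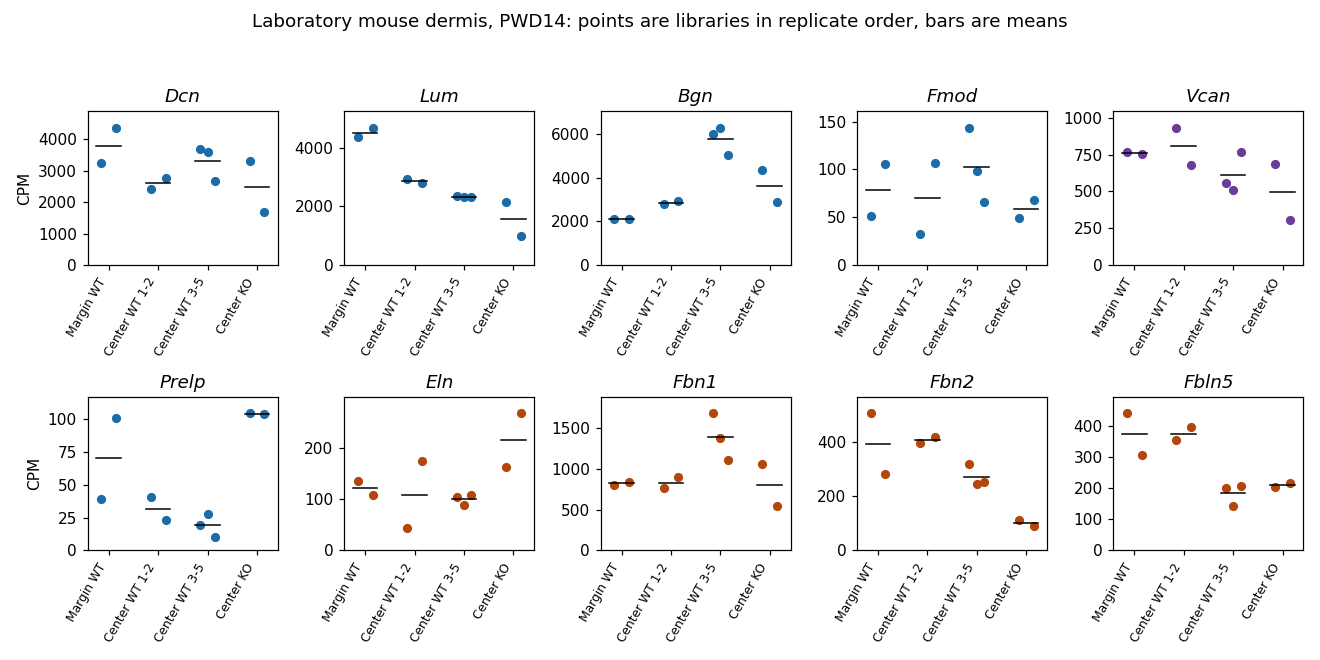
CPM (axis from 0) of the 10 genes in laboratory mouse dermis at PWD14, for the wild-type margin, both sets of wild-type center and the knockout center, where points are libraries and bars are means. Prelp stands at 103 and 104 CPM in the knockout against 10.6 to 27.4 CPM in replicates 3 to 5 of the wild type, and Fbn2 at 91.7 and 112 CPM against 243 to 318 CPM.

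In the dermis of the epidermal Twist1 knockout, again none of the 10 genes passed, beside 0.0565% of all 14163 genes. At an unadjusted p under 0.05 there were 3 (Prelp, Eln and Fbn2), beside 11.5% of all genes, and DESeq2 called the same 3, beside 5.56%. Prelp was 103 and 104 CPM in the knockout and 10.6, 19.2 and 27.4 CPM in the wild type, without overlap (log2 fold change 2.46 ± 0.37, adjusted p = 0.121). Fbn2 was 91.7 and 112 CPM against 243, 253 and 318 CPM (-1.42 ± 0.25, adjusted p = 0.164). Eln was 162 and 267 CPM against 88.1, 105 and 108 CPM (1.08 ± 0.26, adjusted p = 0.262). The remaining 7 genes differed by between -0.82 (Fmod) and 0.19 (Fbln5), with adjusted p of 0.440 or more.

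The knockout libraries stood far apart from each other for several genes. Dcn was 3311 CPM in knockout replicate 1 and 1670 CPM in replicate 2, against 2659 to 3694 CPM in the wild type. Lum was 2144 and 1004 CPM against 2309 to 2345 CPM. Bgn was 4342 and 2876 CPM against 5032 to 6281 CPM, and Fbn1 1060 and 544 CPM against 1109 to 1679 CPM. In each of these 4 genes the lower knockout value belonged to replicate 2, the library with 35980 CPM of keratinocyte markers, of which Dsg3 alone was at 0. Vcan (685 and 303 CPM) and Fbn2 (112 and 91.7 CPM) were also lower in replicate 2. Prelp was nearly equal (104 and 103 CPM). Eln (162 and 267 CPM), Fmod (49.1 and 68.0 CPM) and Fbln5 (204 and 217 CPM) were higher in replicate 2. With replicate 2 as the only knockout library 8 of the 10 genes were called (2 higher, 6 lower), beside 22.5% of all 14915 genes. With replicate 1 alone 1 was called, Prelp (2.52, adjusted p = 0.0352), beside 0.18% of all 15015 genes, and the log2 fold changes of Dcn (0.04) and Vcan (0.20) turned positive. The part of the keratinocyte signal in the values of replicate 2 was not tested.

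All 10 genes were higher in dermis than in epidermis in each of 3 comparisons, the laboratory mouse center (26.8% of 14329 genes called higher in dermis), its margin (26.8% of 14964) and the spiny mouse at PWD21 (33.5% of 14966). The median log2 differences were 4.32, 7.13 and 8.74, beside -0.05, 0.16 and 0.06 over all genes. In the laboratory mouse the dermis libraries were single-end and the epidermis libraries paired-end, so tissue and read type cannot be told apart there, whereas the spiny mouse libraries were of 1 kind.

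Lum was 2795 and 2952 CPM in center dermis against 18.5 and 19.7 CPM in center epidermis, and 8077 and 11420 CPM against 1.94 and 9.28 CPM in the spiny mouse. The difference in the spiny mouse was 10.56 ± 0.93 on the log2 scale (adjusted p = 6.2e-05). Prelp had 0 counts in both center epidermis libraries, which at a floor of 3 counts per library makes center dermis at least 585-fold higher. Fmod had 0 and 6 counts in those libraries and 32.9 and 106 CPM in the dermis. The gene with the least contrast in the laboratory mouse was Bgn, at 168 and 216 CPM in center epidermis (3.11 ± 0.21, adjusted p = 3.82e-04). In the spiny mouse it was Vcan, at 25.2 and 26.4 CPM in epidermis and 243 and 311 CPM in dermis (3.30 ± 0.21, adjusted p = 1.50e-05).

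**Figure D4:**
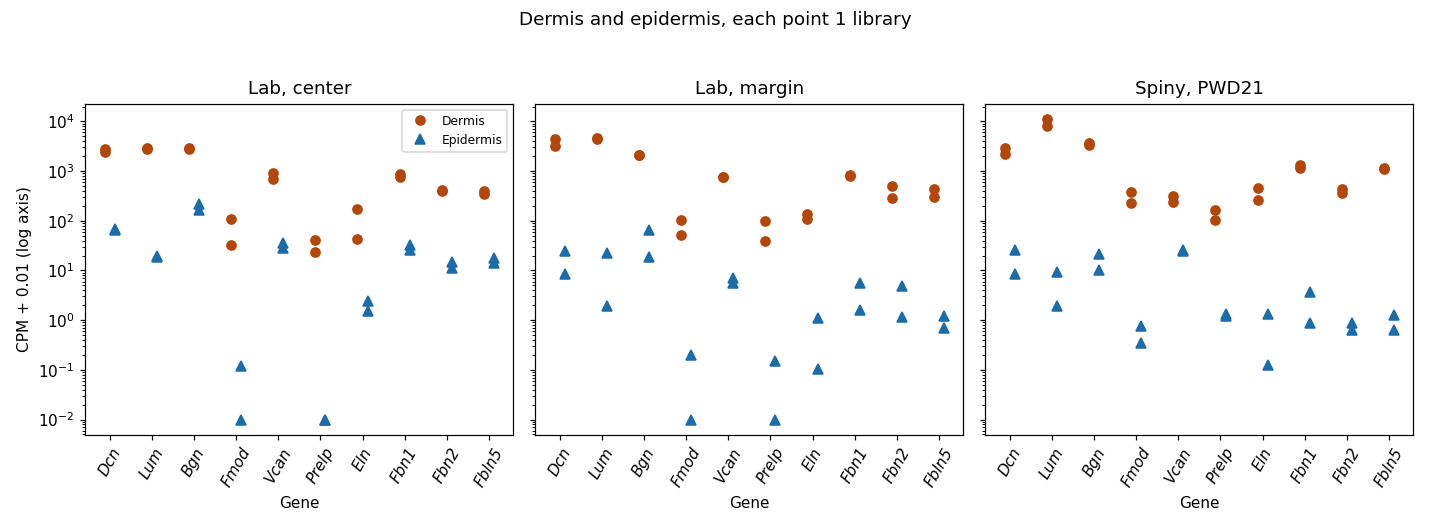
CPM plus 0.01 (log axis) of the 10 genes in dermis (circles) and epidermis (triangles) of the laboratory mouse wound center, its margin and the spiny mouse wound at PWD21, where each point is 1 library. All dermis points lie above the epidermis points of the same gene, and triangles at 0.01 are libraries with 0 counts.

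In the epidermis itself, center and margin of the laboratory mouse were compared in the same way. Of the 8 genes that could be tested, all but Fmod and Prelp, Fbln5 and Vcan were called higher in the center, beside 0.882% of all 14165 genes called higher. Fbln5 was 14.3 and 17.5 CPM in the center and 0.693 and 1.19 CPM in the margin (4.12 ± 0.45, adjusted p = 0.0367). Vcan was 27.8 and 35.7 CPM against 5.63 and 7.20 CPM (2.23 ± 0.31, adjusted p = 0.0428). Fbn1 (25.6 and 33.0 against 1.59 and 5.47 CPM) was not called (2.83 ± 0.48, adjusted p = 0.0625), nor was Dcn, at 65.5 and 69.8 against 8.64 and 24.5 CPM (1.95 ± 0.52). The count depended on single libraries, with 8 genes called without margin replicate 1, 6 without margin replicate 2, 1 without center replicate 1 and 0 under the quasi-likelihood estimate of edgeR 3. Markers of some other cell types differed in the same direction, and those of others did not. Median log2 differences were 0.24 over 10 leukocyte markers and -0.21 over 14 keratinocyte markers. They were -0.24 over 6 Schwann cell and nerve markers and -0.42 over 5 skeletal muscle markers. The fibroblast sum was 5762 to 6988 CPM in center epidermis and 985 to 2548 CPM in margin epidermis, with a median log2 difference of 2.06 over 15 markers (3 called higher), and the medians were 2.68 over 10 smooth muscle and pericyte markers and 4.21 over 10 endothelial markers. Their part in the epidermal values was not tested.

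Whether the center-margin difference was the same in both tissues was tested as an interaction. For 4 of the 10 genes it was lower in dermis than in epidermis, beside 3.34% of all 15531 genes called in that direction. The differences of the log2 changes were -4.16 ± 0.47 for Fbln5 (adjusted p = 0.00198), -2.89 ± 0.53 for Fbn1 (adjusted p = 0.0122), -2.55 ± 0.61 for Dcn (adjusted p = 0.0478) and -2.20 ± 0.40 for Vcan (adjusted p = 0.0122). Fbln5 was called in each fit that left out 1 library, while the total ranged from 1 (without center dermis replicate 2, either margin dermis library or center epidermis replicate 1) to 7 (without margin epidermis replicate 1). Levels of all 4 genes in epidermis were far below those in dermis, and read type again differed between the tissues.

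In spiny mouse epidermis, PWD14 and PWD21 differed for 2 of the 9 genes tested, beside 46.6% of all 12889 genes. Vcan was 4.03 and 4.34 CPM at PWD14 and 25.2 and 26.4 CPM at PWD21 (log2 fold change of PWD14 against PWD21 -2.07 ± 0.26, adjusted p = 1.52e-04). Fbn1 was 5.17 and 11.5 CPM at PWD14 and 0.856 and 3.70 CPM at PWD21 (2.21 ± 0.53, adjusted p = 0.00604). Vcan was thus higher at PWD21 than at PWD14 in both layers of the spiny mouse wound. At PWD28 the single epidermis library held 54.1 CPM of Vcan and 67.7 CPM of Bgn, and the PWD0 library 6.70 and 19.3 CPM.

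Across the 15 dermis libraries, after log2 values were centered within each species, several of the genes varied together. These correlations are descriptions, in which days, regions and marker content vary at once. Within the 6 spiny mouse libraries Pearson's r was 0.994 between Bgn and Fbn2, 0.994 between Fbn2 and Fbln5 and 0.971 between Lum and Vcan, and Eln and Prelp formed their own pair (0.841). Within the 9 laboratory mouse libraries Bgn and Fbln5, at 0.991 in the spiny mouse, ran opposite to each other (-0.844). Both genes also differed between the 2 sets of wild-type center libraries. Means in replicates 1 and 2 and in replicates 3 to 5 were 2857 and 5778 CPM for Bgn, and 375 and 183 CPM for Fbln5. The part of the sets in this r was not tested. Lum and Vcan kept a positive r in both species (0.811 in the laboratory mouse).

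The genes most like each member over the 15 libraries were taken from the 8267 genes whose average in dermis was 10 CPM or more in the laboratory mouse and also in the spiny mouse. For Bgn they were Col6a3 (0.972), Lamb1 (0.962) and Col6a1 (0.957), of which the first and last encode chains of collagen VI. Fbn2 was nearest to Fam101b (0.964), Maf (0.958) and Fstl1 (0.956), and Fbn1 to Szrd1 (0.955), Pdgfra and Olfml3 (both 0.928). Lum was nearest to Tbcel (0.957), Klhl9 (0.951) and Prrx1 (0.950), the last a fibroblast transcription factor. The nearest gene was Heatr5a for Vcan (0.955), Synpo for Fmod (0.943), Smc5 for Fbln5 (0.937) and Ensa for Eln (0.936). Prelp (Ezh1, 0.884) and Dcn (Asah1, 0.856) had no gene as close.

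Other genes of the same matrix were counted from lists chosen by function, and the shares of all genes beside which they stand are 12.0% higher and 14.2% lower at PWD21 against PWD0, and 7.95% and 10.5% at PWD14 against PWD0. Of 26 tested elastic fiber and microfibril genes other than the members, 8 were higher and 1 lower in spiny mouse dermis at PWD21 than at PWD0, and 9 were higher and 7 lower at PWD14. Lox, the enzyme that crosslinks elastin and collagen, was 37.2 and 40.4 CPM at PWD0, 169 CPM at PWD14 and 224 and 232 CPM at PWD21 (2.45 ± 0.28, adjusted p = 7.87e-04). Emilin1, an elastic fiber glycoprotein, had its highest value at PWD14 with 921 CPM, against 33.3 and 70.7 CPM at PWD0 (4.41 ± 0.43, adjusted p = 7.07e-04). Mfap4, which binds elastin and fibrillin, fell and then rose up to PWD21, as Eln and Prelp did. It went from 1197 and 1977 CPM at PWD0 to 184 CPM at PWD14 (-2.92 ± 0.66, adjusted p = 0.0196) and 2454 and 3519 CPM at PWD21 (3.72 ± 0.70 against PWD14, adjusted p = 0.0380). Mfap5, a microfibril component, did the reverse, with 11.5 and 25.4 CPM at PWD0, 235 CPM at PWD14 and 21.0 and 44.4 CPM at PWD21. Its rise (3.86 ± 0.58, adjusted p = 0.00369) and fall (-3.15 ± 0.57, adjusted p = 0.0362) both passed.

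Among 10 tested small leucine-rich proteoglycans outside the member list, 5 were higher and 0 lower at PWD21 than at PWD0 (12.0% and 14.2% of all genes). Ogn, or osteoglycin, was 131 and 151 CPM at PWD0, 74.2 CPM at PWD14 and 623 and 1113 CPM at PWD21 (2.51 ± 0.37, adjusted p = 0.00248). Of 5 tested hyalectans and link proteins 2 were higher and 2 lower. Acan, which encodes the cartilage proteoglycan aggrecan and is a relative of versican, was 0.441 and 0.529 CPM at PWD0, where each library held 3 counts, 24.4 CPM at PWD14 and 17.2 and 49.0 CPM at PWD21. It was called higher at PWD14 (adjusted p = 0.00146) and at PWD21 (adjusted p = 7.74e-04), and no fold is given against so few counts.

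Of 21 tested genes for synthesis of chondroitin and dermatan sulfate chains, 8 were higher and 0 lower at PWD21 (12.0% and 14.2% of all genes), and of 5 for keratan sulfate 3 were higher and 0 lower. Chsy3, a chondroitin synthase, was 6.0 and 8.96 CPM at PWD0 and 36.8 and 41.8 CPM at PWD21 (2.30 ± 0.33, adjusted p = 0.00230). Of 12 tested enzymes that cut these proteins, 7 were higher and 1 was lower. Mmp9, a gelatinase that also cuts elastin protein, was 2.47 and 3.53 CPM at PWD0, 152 CPM at PWD14, 20.9 and 40.5 CPM at PWD21 and 3.32 CPM at PWD28. Its gain at PWD14 was 5.89 ± 0.46 (adjusted p = 4.10e-04). The single PWD14 library held the highest value of Mmp9 and the lowest of Eln, and a relation between them was not tested. Adamts4, a proteinase that cuts versican and aggrecan, went from 5.12 and 16.9 CPM to 141 and 149 CPM at PWD21 (3.67 ± 0.47, adjusted p = 0.00134).

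In laboratory mouse dermis a single gene of these 6 lists passed between center and margin. Mmp12, the macrophage elastase, was 371 and 450 CPM in the center and 79.7 and 109 CPM in the margin (2.20 ± 0.22, adjusted p = 0.00148). Its level in replicates 3 to 5 of the wild-type center was 18.9, 82.8 and 84.8 CPM, within or below the margin's range. Leukocyte markers (10 genes, 0 called) summed to 3537 to 4481 CPM in center replicates 1 and 2, 2453 to 3537 CPM in the margin and 4271 to 5693 CPM in center replicates 3 to 5. Against the margin, 9 of the 10 had a positive log2 fold change (median 0.51, beside -0.03 over all genes). By edgeR's test 6 had an unadjusted p under 0.05, beside 15.8% of all genes. Their part in the Mmp12 difference was not tested. In the knockout comparison no gene of these 6 lists passed.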

How the data were processed

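RNA-seq was measured in 25 libraries of wound or unwounded skin. The authors aligned reads of both species to the mouse genome mm10 with STAR (version 2.4.1d in the submitters' processing notes) and counted them per gene with HTSeq 0.6.0, and deposited raw counts per gene symbol for each library (24500 symbols and 5 summary lines, which were left out of library sizes). Counts were used as deposited. CPM was computed over all gene rows, and levels per kilobase used the union of exons in GENCODE vM21. Comparisons used edgeR 4.0.16 in R 4.3.3 (filterByExpr, TMM factors, quasi-likelihood test, prior count 0.125, Benjamini-Hochberg adjustment over all genes tested, threshold 0.05) among the groups compared, with the 4 spiny mouse days in 1 fit where a day had 1 library, and the procedure was tested on simulated data. The floor was 3 counts per library. Intervals cover the spread between libraries as the model estimated it, and the floor covers counting only.

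The members and lists were chosen with earlier results of these data known. The text names all 10 members. From each other functional list it names genes among the 3 largest changes per direction that average 1 CPM or more in the fit, and of marker lists it gives sums and counts. Mmp2 is in both the fibroblast and the cleaving enzyme list. The division of the 5 wild-type center dermis libraries follows the library names beside the study's heatmaps. Alternatives were DESeq2 1.42.0, a likelihood ratio test, other scalings and filters, all libraries of a species in 1 fit, leaving out each library and, chosen after the data were seen, the quasi-likelihood estimate of edgeR 3. No pair of replicates agreed within sampling noise. Of the symbols, 23535 matched the RefSeq gene table, and promoters came from RefSeq on GRCm38.p6.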

Additional observations from a re-analysis of the deposited data

Results flagged for a closer look

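The change from wound margin to wound center in the laboratory mouse differed between dermis and epidermis for 4 of the 10 genes, by an interaction term in edgeR. On the log2 scale the dermal change minus the epidermal change was -4.16 for Fbln5 (adjusted p = 0.00198), -2.89 for Fbn1 (adjusted p = 0.0122), -2.55 for Dcn (adjusted p = 0.0478) and -2.20 for Vcan (adjusted p = 0.0122). In dermis none of the 4 differed by more than 0.46 in either direction, and in epidermis their changes were 4.12, 2.83, 1.95 and 2.23 in the same order. The fibroblast marker sum in center epidermis, 5762 to 6988 CPM against 985 to 2548 CPM in the margin, moved in the same direction, and its part in the difference was not tested.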

How the results depend on the processing

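Of 839 gene results recomputed under other settings, 791 kept their direction and their side of the threshold, and of 464 with a library left out 394 did. The number of the 10 genes called moved by over 1.5 times as follows. DESeq2 called 2 between dermal center and margin (0 by edgeR's quasi-likelihood test), 3 for the knockout (0), 5 for PWD21 against PWD14 (3), 2 for PWD28 against PWD21 (1) and 5 for epidermal center against margin (2). The likelihood ratio test called 2 for the knockout and 5 for epidermal center against margin. One fit over all libraries of the species called 1 for the knockout, 5 for PWD21 against PWD14, 4 for epidermal center against margin and 1 for the interaction. With all 5 wild-type center libraries 2 were called for the knockout, with library size alone 4 for spiny mouse epidermis, and with the edgeR 3 estimate 0 for epidermal center against margin and 2 for the interaction. With a library left out the counts ran from 0 to 8 for the knockout, 0 to 6 for PWD21 against PWD14, 0 to 1 for PWD28 against PWD21, 1 to 8 for epidermal center against margin, 3 to 4 for spiny mouse epidermis and 1 to 7 for the interaction. Signs turned only for genes that were not called. With all 5 center libraries the center-margin log2 fold change was 0.38 for Fmod, -0.12 for Fbn2 and -0.37 for Fbln5, and that of Fbln5 in the knockout was -0.27. Fmod from PWD21 to PWD28 was 0.016 with at least 10 counts or in the species fit, 0.051 with RLE factors or DESeq2 and 0.17 with library size alone. With a library left out, center-margin values ran from -1.11 to 0.51 for Fmod, -0.11 to 0.42 for Vcan, -1.35 to 0.57 for Eln, -0.26 to 0.66 for Fbn2 and -0.18 to 0.41 for Fbln5. They ran from -1.03 to 0.036 for Dcn and -1.06 to 0.20 for Vcan in the knockout, from -0.46 to 0.23 for Dcn at PWD21 against PWD0, and from -0.36 to 0.44 for Fmod and -0.55 to 0.19 for Prelp at PWD28 against PWD21. The cause was not tested. No paired analysis was possible because the replicate numbers only name libraries in accession order and, although center and margin and the 2 layers were cut from the same wounds, no source says which libraries share one. Single libraries at PWD14 and PWD28 and the low depth of the PWD0 dermis (5669760 and 6804714 reads on genes) limit these comparisons. So does its larger share of reads set aside for low alignment quality (60.5% and 55.2%, against 44.8% and 38.0% at PWD21).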
